A study of Mus musculus with 18 samples.

Results

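Transcripts of 7 genes were examined whose products carry dietary fat out of the gut as lipoproteins or build those particles: the apolipoproteins Apoa1, Apoa4, Apob, Apoc2 and Apoc3, the lipid transfer protein gene Mttp, and Sar1b, which encodes a GTPase of vesicle budding. They were chosen by name, as the rows of the count tables whose Ensembl identifier carries 1 of these symbols in GENCODE M21, and all 7 were found among 47729 rows per table. RNA was sequenced from epithelial cells that had been sorted from ileum. All mice were female, and they formed 3 groups of 6 libraries: pregnant, pseudopregnant and virgin. All animals were fed RM1 chow during the experiment. The labels used here state no strain, age, day of pregnancy, way of inducing pseudopregnancy, hour of collection, fed or fasted state, or sorting marker. They also do not state that the libraries of a group came from separate animals, so a p-value here covers the variation among libraries, which may be technical.

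Absorptive cells of the small intestine rebuild absorbed fat into triglyceride and pack it in chylomicrons. Apob provides the structural protein of the particle, and the microsomal triglyceride transfer protein made from Mttp loads lipid onto it in the endoplasmic reticulum. Sar1b recruits the COPII coat that moves the particle towards the Golgi, while Apoa1, Apoa4 and Apoc3 are exchangeable apolipoproteins of its surface. Apoc2 activates lipoprotein lipase in the circulation.

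Libraries held 24.9 to 37.3 M (mega) counts, with a median of 31.5 M. The epithelial markers Epcam, Cdh1, Krt8 and Vil1 together had 9810 to 12800 CPM (counts per M counts, after TMM scaling of library size) in pregnant, 8130 to 13600 CPM in pseudopregnant and 10000 to 12800 CPM in virgin libraries. The 5 ileal markers, which include the ileal bile acid carriers Fabp6 and Slc10a2, together had 3260 to 12200 CPM in pregnant, 2740 to 13200 CPM in pseudopregnant and 3720 to 16700 CPM in virgin libraries. Those of proximal small intestine (5 genes) had 398 to 1860, 604 to 1580 and 274 to 1160 CPM in the same order. For pseudopregnant against virgin, 5 of 5 proximal and 1 of 5 ileal markers had a positive log2 fold change (medians 0.52 and −0.18). For pregnant against virgin, 4 and 3 did (medians 0.22 and 0.00). None passed an edgeR adjusted p of 0.05, and the part of gut region in the group differences was not tested. Summed leukocyte markers reached at most 37.1 CPM, red blood cell markers 1.45 CPM and markers of stroma and endothelium 1.28 CPM in any library. The 4 hepatocyte markers, which matter here because liver makes the same apolipoproteins, together had 3.92 to 13.8 CPM. Of these, Serpina1c reached at most 8.67 CPM, Ttr 5.10 CPM, Alb 0.553 CPM and Fgb 0.0917 CPM.

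Apoa1, Apoc3 and Apoa4 lie side by side on chromosome 9 (GRCm38, GENCODE M21). Apoa1 spans 46228580 to 46230466 on the plus strand, Apoc3 spans 46232933 to 46235636 on the minus strand, and Apoa4 spans 46240696 to 46243459 on the plus strand. The gaps are 2466 bases between Apoa1 and Apoc3 and 5059 bases between Apoc3 and Apoa4. Apoa5, the next gene of this cluster, begins after a further gap of 25173 bases and had a median of 0.175 CPM, below the filter for testing. The other members lie elsewhere: Apob on chromosome 12 from 7977648 to 8016835 on the plus strand, Apoc2 on chromosome 7 from 19671579 to 19677941 on the minus strand, Mttp on chromosome 3 from 138089854 to 138144968 on the minus strand, and Sar1b on chromosome 11 from 51763687 to 51791925 on the plus strand. Their annotated exons cover very different lengths, from 813 bases in Apoc2, 1014 in Apoc3, 1236 in Apoa1, 1255 in Sar1b and 1815 in Apoa4 to 6206 in Mttp and 13934 in Apob.

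The start regions of Apob, Apoa4 and Apoa1 are shown next. Apob varied apart from the chromosome 9 genes across libraries, as described further on, and whether these sequences have a part in that was not tested. RefSeq (GRCm38.p6) gave a promoter window for 6 of the 7 members, all but Apoc3. The printed bases lie upstream of the RefSeq start and outside annotated exons of the gene, read 5′ to 3′ on the plus strand of the genome, which is the strand of all 3 genes. Capitals mark matches to CAAAGNNC, a core found in binding sites of the nuclear receptor HNF4, and to GATAAG, a core of GATA factors, searched on both strands in the 250 bases before the start.
Apob, chr12:7977427-7977647: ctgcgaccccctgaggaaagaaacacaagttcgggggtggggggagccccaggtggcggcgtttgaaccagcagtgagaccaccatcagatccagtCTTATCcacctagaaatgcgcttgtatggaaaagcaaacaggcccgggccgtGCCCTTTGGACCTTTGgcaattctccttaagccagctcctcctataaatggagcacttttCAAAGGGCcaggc
Apoa4, chr9:46240594-46240695: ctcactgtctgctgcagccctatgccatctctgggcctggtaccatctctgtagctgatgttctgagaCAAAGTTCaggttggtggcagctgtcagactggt
Apoa1, chr9:46228380-46228579: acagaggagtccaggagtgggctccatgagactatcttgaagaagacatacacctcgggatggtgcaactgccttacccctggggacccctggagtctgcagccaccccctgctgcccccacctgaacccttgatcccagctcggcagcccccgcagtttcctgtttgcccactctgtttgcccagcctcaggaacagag
The Apob window held 3 matches to CAAAGNNC, of which 2 adjoin each other on the opposite strand, and 1 match to GATAAG on the opposite strand. The Apoa4 window held 1 match to CAAAGNNC, and these letters were not in the Apoa1 window. Of the 6 members with a window, 3 held CAAAGNNC and 1 held GATAAG, against 15.4% and 6.55% of 32851 mouse promoter windows of the same length. The motifs were chosen with these sequences in view, and a match describes letters, not a bound site.

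Together the 7 genes took 1.09 to 1.93% of all counts in pregnant, 0.966 to 1.94% in pseudopregnant and 0.869 to 2.58% in virgin libraries. Apoa1 alone took 0.470 to 1.46% of the counts of a library. Per kilobase of annotated exon, Apoa1 averaged 7180 ± 2960 CPM, Apoa4 1430 ± 846 CPM, Apoc3 298 ± 151 CPM, Mttp 223 ± 64.8 CPM, Sar1b 132 ± 31.8 CPM and Apob 91.0 ± 44.9 CPM (SD, n = 18 libraries). Apoa1 was above Apoa4 and Apoa4 above Apoc3 in 18 of 18 libraries. Mttp was above Sar1b in 17 and Sar1b above Apob in 14 of the 18. Apoc3 was above Mttp in 11 of 18, so these neighbours in the order were not apart beyond their spread.

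Apoc2 had 1 to 5 counts in pregnant, 0 to 10 in pseudopregnant and 0 to 6 in virgin libraries and was not tested. Only 167 of its 813 exonic bases (20.5%) are free of the overlapping gene Gm44805, annotated on the same strand, and Gm44805 had 0 counts in every library. How the counting treated reads that fall in more than 1 gene is not given in the sources used here, and the Apoc2 count was not read as its level. Apoa4 shares 632 exonic bases with the antisense gene Gm10680 (40 to 277 counts per library). Mttp shares 457 with Trmt10a (47 to 123 counts) and 132 with Gm43691 (0 to 3 counts), both on the opposite strand. The strand setting of the counting is not given either. Counts on these partners were small beside those of Apoa4 (28588 to 191849) and Mttp (15632 to 64335). Reads dropped for falling in more than 1 gene would show in neither count, so the effect of the overlap is not known. Of the exonic bases, 65.2% in Apoa4 and 90.5% in Mttp are free of other genes on both strands.

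The first question was whether the members differed with mating status. None of the 6 tested members passed the adjusted threshold of 0.05 between any 2 groups (edgeR quasi-likelihood test, Benjamini-Hochberg adjustment over 14675 genes). The same test called 0% of the 14675 genes in each of the 3 comparisons. At an unadjusted p under 0.05 it listed 540 genes (3.68%) for pregnant against virgin, 1375 (9.37%) for pseudopregnant against virgin and 345 (2.35%) for pregnant against pseudopregnant. Each group enters 2 of these comparisons, so they share libraries and are not independent. DESeq2 called 5 genes (Slc31a1, Gm42427, Cyp3a44, Bco1 and Mbl2, named after their values were seen) for pregnant against virgin and 0 in the other comparisons, none of them a member. A test for any difference among the 3 groups called 0 genes and gave the 6 members adjusted p-values of 0.75 to 0.90, with 669 genes (4.56%) under an unadjusted 0.05. For 0 of the 6 members did the CPM ranges of 2 groups lie apart, which held for 0.0681% of all genes for pregnant against virgin, 0.0681% for pseudopregnant against virgin and 0.0273% for pregnant against pseudopregnant.

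**Figure D1:**
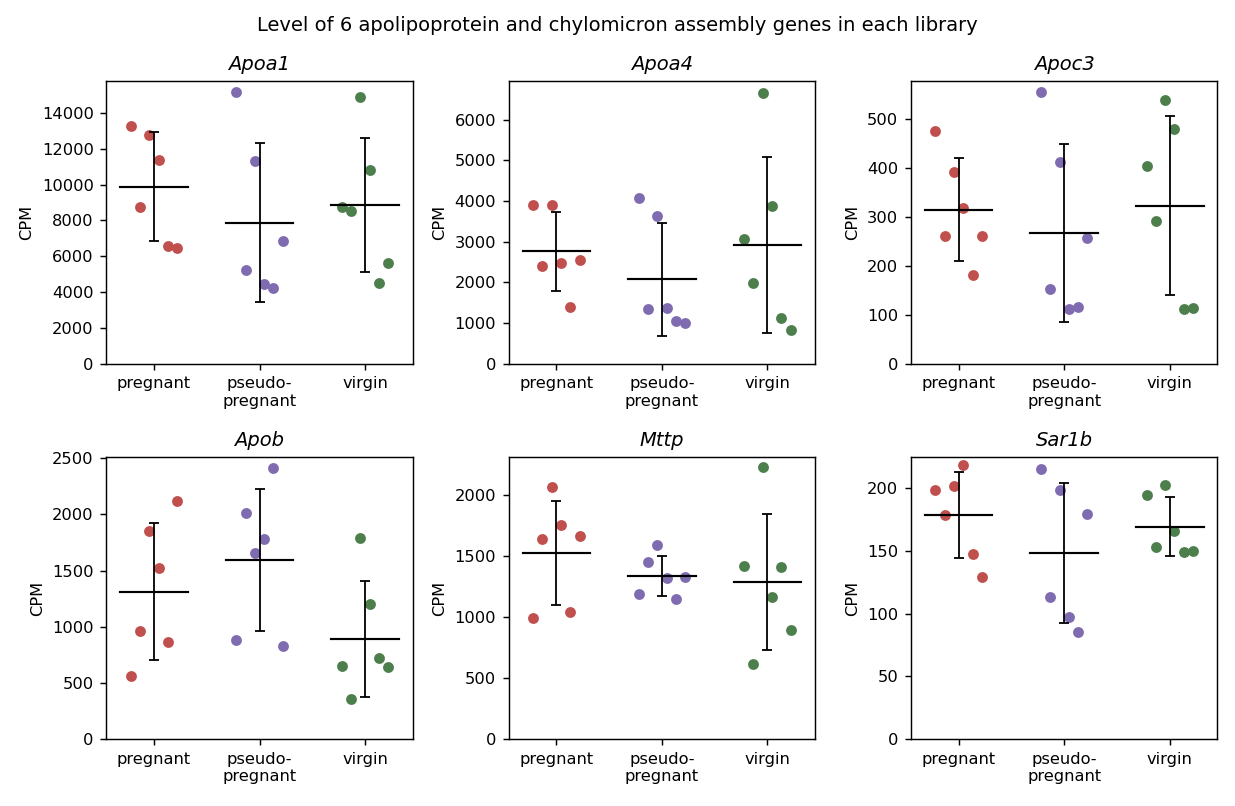
Level of each tested member (CPM, y axis) in each library (points) by group, with the group mean (line) and SD (bar), n = 6 libraries per group. The groups overlap for all 6 genes, and the Apob mean is 1590 CPM in pseudopregnant libraries against 895 CPM in virgin libraries.

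Apob, the structural protein of chylomicrons, was the member with the largest fold changes in the comparisons with virgin libraries. It had 563, 1250 and 2120 CPM (lowest, median and highest library) in pregnant mice, 830, 1720 and 2410 CPM in pseudopregnant mice, and 359, 688 and 1790 CPM in virgin mice. All 6 pseudopregnant libraries and 5 of 6 pregnant libraries lay above the virgin median, but the groups overlapped, with pseudopregnant libraries 1 and 6 below virgin libraries 3 and 4. The means were 1590 ± 626 CPM in pseudopregnant and 895 ± 517 CPM in virgin libraries (SD, n = 6 each), a log2 fold change of 0.83 (SE 0.38, edgeR unadjusted p = 0.040, adjusted p = 0.52). This was the 1 member comparison with an unadjusted p under 0.05, in a comparison where 9.37% of all genes had one. For pregnant against virgin, Apob had a log2 fold change of 0.55 (SE 0.38, edgeR adjusted p = 0.89), and for pregnant against pseudopregnant −0.28 (SE 0.38, edgeR adjusted p = 0.92). With the length slope of each library as a covariate, a measure described further on, the pseudopregnant against virgin value for Apob was 0.23, the pregnant against virgin value 0.23 and the pregnant against pseudopregnant value −0.00. With a covariate for villus against crypt content, also described there, they were 0.82, 0.23 and −0.59. Without pregnant library 1, pregnant against pseudopregnant gave −0.11.

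Mttp, the loading factor for Apob, had an SD of 29.1% of its mean over the 18 libraries, against 49.3% for Apob. Its lowest, median and highest libraries had 990, 1650 and 2060 CPM in pregnant, 1150, 1320 and 1590 CPM in pseudopregnant, and 618, 1280 and 2230 CPM in virgin mice. Pseudopregnant libraries lay inside the range of the virgin libraries, whose lowest value was library 2 and highest library 3. The log2 fold change was 0.24 for pregnant against virgin (SE 0.25, edgeR adjusted p = 0.89), 0.05 for pseudopregnant against virgin (SE 0.25, edgeR adjusted p = 0.92) and 0.19 for pregnant against pseudopregnant (SE 0.25, edgeR adjusted p = 0.92).

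Sar1b, the GTPase of the COPII coat, had 129, 188 and 218 CPM in pregnant, 85.7, 146 and 215 CPM in pseudopregnant, and 149, 160 and 202 CPM in virgin libraries, again as lowest, median and highest. The 3 lowest pseudopregnant libraries (2, 4 and 5) stood below every library of the other groups, and the remaining 3 stood among them. The log2 fold changes were 0.08, −0.19 and 0.27 (SE 0.21 each) for pregnant against virgin, pseudopregnant against virgin and pregnant against pseudopregnant. The edgeR adjusted p-values in the same order were 0.95, 0.64 and 0.92. Its close relative Sar1a had 58.3 to 79.6 CPM over the 18 libraries.

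Apoa1, the main protein of high density lipoprotein, had 6490, 10100 and 13300 CPM in pregnant, 4210, 6040 and 15200 CPM in pseudopregnant, and 4520, 8640 and 14900 CPM in virgin libraries. The highest pseudopregnant library was number 1 and the highest virgin library number 3, each above every pregnant library. Log2 fold changes were 0.16, −0.17 and 0.33 (SE 0.37 each) for pregnant against virgin, pseudopregnant against virgin and pregnant against pseudopregnant, with edgeR adjusted p-values of 0.94, 0.82 and 0.92.

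Apoa4, made by the gut in response to fat, spread most widely. It had 1400, 2510 and 3890 CPM in pregnant, 995, 1360 and 4080 CPM in pseudopregnant, and 835, 2530 and 6650 CPM in virgin libraries. The virgin group alone held both the lowest library (6) and the highest library (3) of the 18. Its log2 fold changes were −0.08, −0.49 and 0.41 (SE 0.46 to 0.47) in the same order of comparisons, with edgeR adjusted p-values of 0.98, 0.60 and 0.92.

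Apoc3, an inhibitor of lipoprotein lipase, had 181, 290 and 477 CPM in pregnant, 111, 205 and 555 CPM in pseudopregnant, and 112, 349 and 539 CPM in virgin libraries. Its log2 fold changes were −0.04, −0.28 and 0.24 (SE 0.43 each), with edgeR adjusted p-values of 0.99, 0.75 and 0.93. For all 3 genes of the cluster the groups overlapped. Every pregnant library was above the pseudopregnant median for Apoa1 and Apoa4, and 5 of 6 were for Apoc3. Leaving out virgin library 3 gave Apoa4 a pregnant against virgin value of 0.35, and leaving out pseudopregnant library 1 gave it a pseudopregnant against virgin value of −0.81. Without virgin library 3 that last comparison gave −0.07. In bulk RNA, fewer absorptive cells and less RNA of a gene per cell cannot be told apart.

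**Figure D2:**
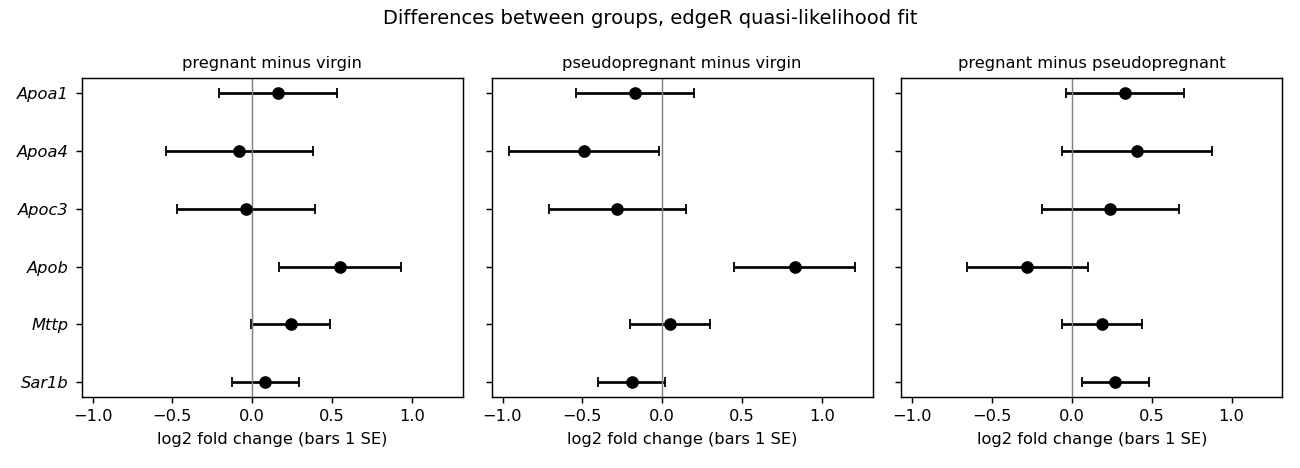
Log2 fold change (x axis) of the 6 tested members (rows) in the 3 comparisons (panels), with bars of 1 SE from the edgeR quasi-likelihood fit to 18 libraries. Apob is farthest from 0 for pseudopregnant against virgin, at 0.83, and no member passed the adjusted threshold.

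Across the 18 libraries the chromosome 9 genes varied together and Apob varied apart from them. The correlations of log2 CPM that follow are descriptions over libraries that share their depth and cell make-up with every gene in them. Apoa1 and Apoc3 varied together (Pearson r = 0.95), as did Apoa4 and Apoc3 (r = 0.91) and Apoa1 and Apoa4 (r = 0.89). Sar1b, on another chromosome, varied with Apoa1 (r = 0.86), Apoc3 (r = 0.80) and Apoa4 (r = 0.66). Apob varied with Mttp (r = 0.69) and showed no such relation to the chromosome 9 genes, with r of −0.11 to Apoa1, −0.10 to Apoc3 and 0.12 to Apoa4. Mttp lay between, with r of 0.41 to Apoa4, 0.26 to Sar1b, 0.25 to Apoa1 and 0.24 to Apoc3. With the group means removed the same pairs gave 0.95, 0.90 and 0.88 within the cluster and −0.07, −0.05 and 0.23 for Apob with its genes.

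**Figure D3:**
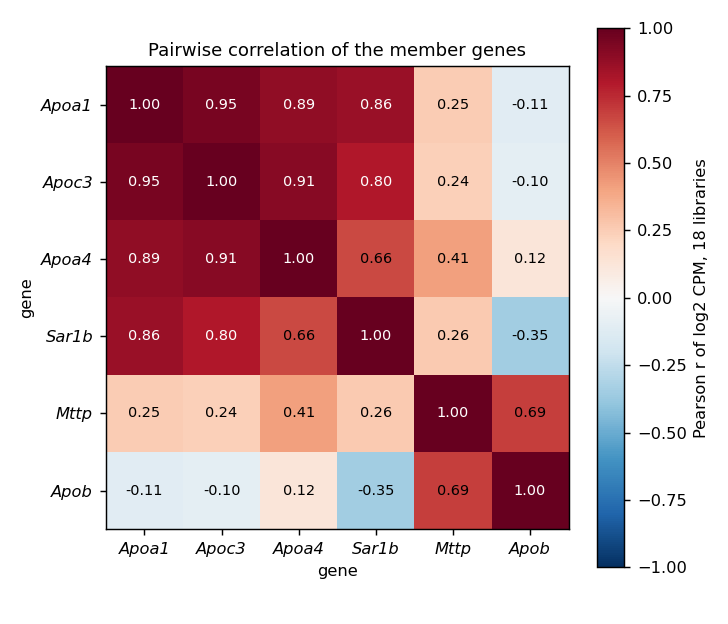
Pearson r of log2 CPM over 18 libraries for each pair of tested members (rows and columns, colour and printed value). Apoa1, Apoc3, Apoa4 and Sar1b form 1 block with r of 0.66 to 0.95, and Apob is close to 0 with the 3 chromosome 9 genes.

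Pairs of members were next compared as ratios inside each library, which do not move with library scaling. The ratio of Apoa1 to Apoc3 was nearly the same in all groups, with log2 means of 4.98 ± 0.22 in pregnant, 4.98 ± 0.25 in pseudopregnant and 4.93 ± 0.47 in virgin libraries (SD, n = 6 each). The ratio of Mttp to Apob was −0.15 ± 0.64 in pseudopregnant and 0.60 ± 0.44 in virgin libraries on the log2 scale. That is a difference of −0.75, with 5 of 6 pseudopregnant libraries below the virgin median, an exact two-sided permutation p of 0.0368 and an adjusted p of 0.403 over 12 tests. In pregnant libraries this ratio was 0.31 ± 0.44. It differed by 0.46 from pseudopregnant and by −0.29 from virgin libraries (exact permutation p = 0.180 and 0.262).

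The ratio of Apoa4 to Apob was 0.24 ± 1.25 in pseudopregnant and 1.55 ± 0.86 in virgin libraries, a difference of −1.31 on the log2 scale, with 5 of 6 pseudopregnant libraries below the virgin median (exact permutation p = 0.0671, adjusted p = 0.403). In pregnant libraries this ratio was 1.14 ± 0.88. It differed by 0.90 from pseudopregnant and by −0.41 from virgin libraries (exact permutation p = 0.186 and 0.422). The ratio of Sar1b to Sar1a was 1.38 ± 0.26 in pregnant, 1.05 ± 0.47 in pseudopregnant and 1.21 ± 0.21 in virgin libraries, with exact permutation p-values of 0.167 to 0.444. None of the 12 ratio tests passed the adjusted threshold, and the smallest p that 6 against 6 libraries allow is 0.00216. Apob (13934 exonic bases), Mttp (6206) and Apoa4 (1815) differ in length, and the ratios were not adjusted for the length slope described further on.

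**Figure D4:**
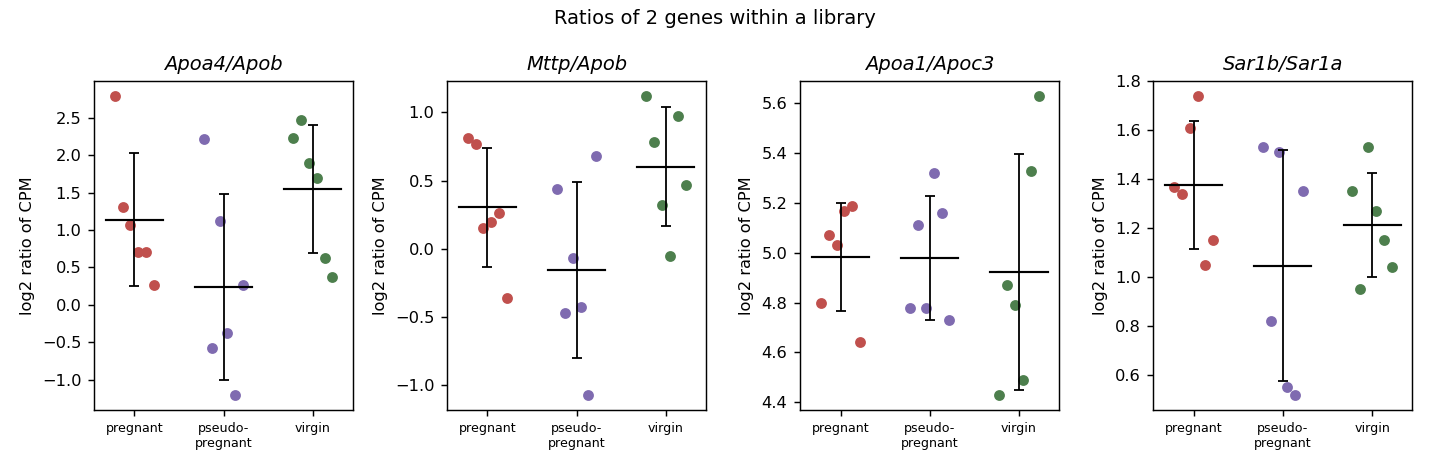
Log2 ratio of CPM within each library (points) for 4 gene pairs (panels) by group, with mean (line) and SD (bar), n = 6 libraries per group. The Mttp to Apob ratio averages −0.15 in pseudopregnant libraries against 0.60 in virgin libraries, and the groups overlap in every panel.

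Libraries of 1 group differed from each other in ways that moved with the members, and these are given as measurements. The first is a villus-minus-crypt score, the mean log2 deviation of 16 absorptive enterocyte markers minus that of 16 proliferation markers, with no member in either list. It averaged 0.30 ± 0.77 in pregnant, −0.01 ± 0.63 in pseudopregnant and −0.30 ± 0.73 in virgin libraries (SD, n = 6 each). All 16 absorptive markers had a positive log2 fold change for pregnant against virgin, with a median of 0.44, and none passed the adjusted threshold. Over the 18 libraries Mttp followed this score most closely (r = 0.72, Spearman rho = 0.69, permutation p = 6.1e-04 and 0.0018, adjusted 0.0037 and 0.0086 over 12 relations). Apoa4 gave r = 0.66 and rho = 0.69 (permutation p = 0.0033 and 0.0021, adjusted 0.013 and 0.0086). Apoa1 gave 0.61 and 0.59, Apob 0.59 and 0.63, and Apoc3 0.53 and 0.55, with adjusted permutation p-values for r of 0.018, 0.020 and 0.040. Sar1b gave 0.44 and 0.51 and did not pass (adjusted permutation p = 0.070 for r). The share of all genes that would pass the same tests was not computed, so these relations are not shown to be particular to the members.

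The adjusted calls were not kept without the 2 libraries of highest score. Without pregnant library 3 and virgin library 3, the farthest from the median score, r was 0.57 for Mttp, 0.53 for Apoa4 and Apob, 0.48 for Apoa1, 0.43 for Apoc3 and 0.34 for Sar1b. None of these passed after adjustment, the smallest adjusted permutation p being 0.076. This adjustment was over the 6 members for this score alone, whereas the values over 18 libraries were adjusted over 12 relations. Within the pregnant, pseudopregnant and virgin groups r was 0.49, 0.90 and 0.74 for Apoa4, 0.40, 0.76 and 0.74 for Apoa1, 0.39, 0.71 and 0.57 for Apoc3, and 0.80, −0.01 and 0.81 for Apob, each over 6 libraries. The part of cell make-up in the differences between groups was not tested.

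The second measure is the length slope, the change in log2 CPM of a library against the other libraries per doubling of exonic length, over 4723 well expressed genes. It separates libraries richer in long transcripts from those richer in short ones. It averaged 0.00 ± 0.13 in pregnant, 0.07 ± 0.16 in pseudopregnant and −0.07 ± 0.11 in virgin libraries (SD, n = 6 each). Apob, the longest member, followed it closely (r = 0.91, rho = 0.90, permutation p = 1.0e-05 for each, the smallest that 100000 permutations can give, adjusted 1.2e-04). The value was 0.95 within pregnant, 0.93 within pseudopregnant and 0.89 within virgin libraries, and 0.87 without the farthest libraries, pseudopregnant 5 and virgin 2. Mttp, the second longest member, gave r = 0.53 and rho = 0.49 (adjusted permutation p = 0.040 and 0.059).

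The short members went the other way. Sar1b gave r = −0.63 and rho = −0.41 (adjusted permutation p = 0.017 and 0.11), Apoa1 −0.48 and −0.41, Apoc3 −0.48 and −0.40, and Apoa4 −0.24 and −0.15, of which Apoa1, Apoc3 and Apoa4 did not pass. Within the pseudopregnant libraries r was −0.95 for Sar1b, −0.92 for Apoc3 and −0.88 for Apoa1, and within virgin libraries it was 0.32, 0.03 and 0.18. Pseudopregnant libraries 2, 4 and 5 had the highest length slopes of that group, the 3 highest Apob levels of that group and its 3 lowest Sar1b and Apoa1 levels. As for the villus-minus-crypt score, the share of all genes that would pass these tests was not computed. The relation of the length slope to the groups and to RNA quality was not tested.

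**Figure D5:**
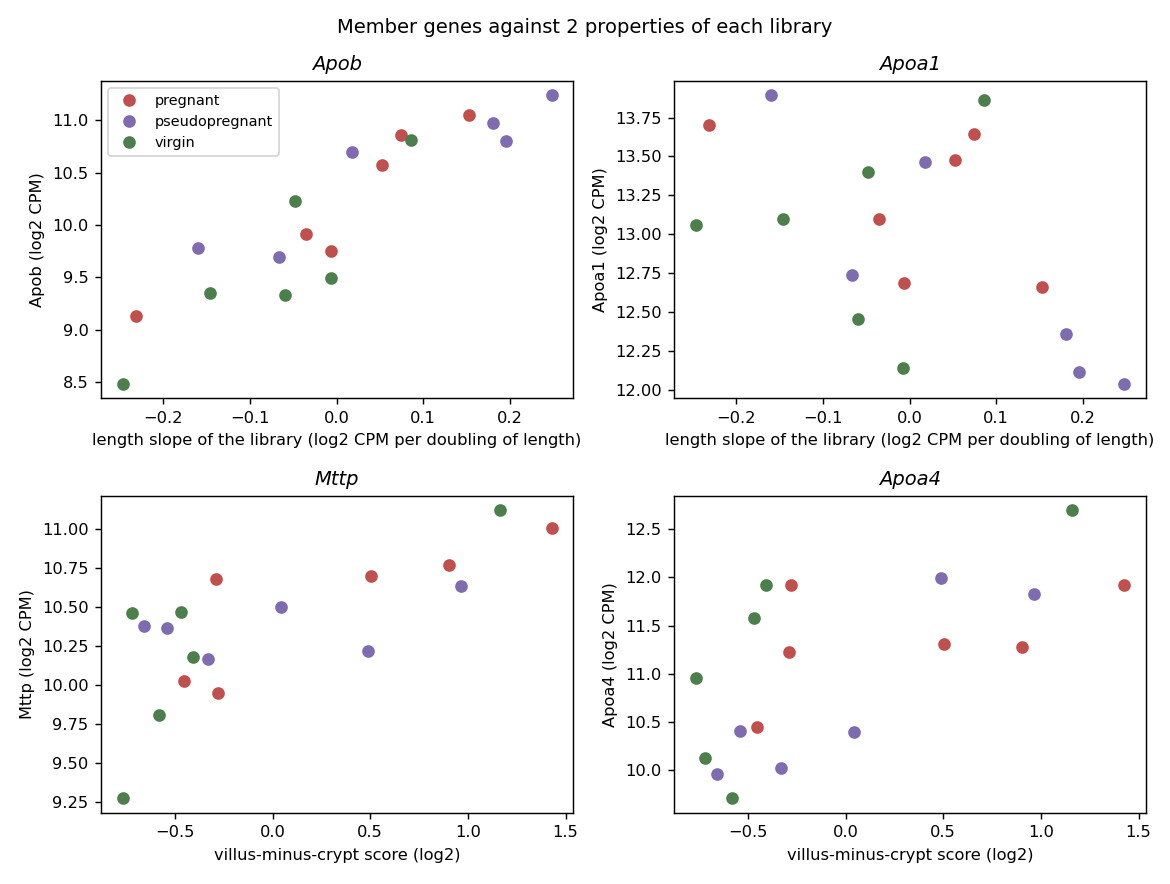
Log2 CPM of a member (y axis) against a property of the library (x axis) for 18 libraries coloured by group: Apob and Apoa1 against the length slope (top), Mttp and Apoa4 against the villus-minus-crypt score (bottom). Apob rises along the length slope (r = 0.91), and Apoa1 does not (r = −0.48). Mttp and Apoa4 tend to rise with the score (r = 0.72 and 0.66), with Apoa4 also high in some libraries of negative score.

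The genes most like each member over the 18 libraries, among genes with a mean of at least 10 CPM, were then listed. Members themselves, genes without a symbol and symbols that begin with Gm or end in Rik were left out of this ranking. Closest to Apob were Mtus1 (r = 0.98), Akap9 and Rapgef2 (r = 0.97 each), with exons of 10078, 21350 and 14051 bases. Of 7966 genes compared, 296 had r over 0.9 with Apob, and their median exonic length was 8597 bases against 4463 over all genes compared. Closest to Apoa1 were Rhod (r = 0.97), Ceacam18 (r = 0.96) and Cdc42ep2 (r = 0.95), and 66 genes with r over 0.9 had a median length of 2787 bases. Closest to Apoa4 were Cidec, a lipid droplet protein (r = 0.94), Rbp2, the retinol carrier of enterocytes (r = 0.92), and Dnpep (r = 0.92). Rbp2 (r = 0.91) was also among the closest to Apoc3, with Cgref1 (r = 0.93) and Rhod (r = 0.89). Mttp was closest to Mical1 (r = 0.95), Btnl2 and Snx9 (r = 0.94 each), and Sar1b to Vapa, Scp2 and Sucla2 (r = 0.96 each).

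Other genes of the pathway were taken from 4 lists, and the counts below are those with a positive or negative fold change, since none passed the adjusted threshold. Over all 14675 genes the median log2 fold change was −0.01 for pregnant against virgin, 0.00 for pseudopregnant against virgin and −0.01 for pregnant against pseudopregnant. Of 9 other apolipoproteins, 3 were expressed enough to test. Apoe had 1.38 to 2.96 CPM, Apoh 0.521 to 1.56 CPM and Apoa2 0.356 to 1.60 CPM. Apoa2, a protein of high density lipoprotein, averaged 0.697 ± 0.379 CPM in pregnant against 1.08 ± 0.329 CPM in virgin libraries. Its log2 fold change was −0.67 (SE 0.30, edgeR adjusted p = 0.89). Apoe and Apoh had −0.24 and 0.24 for pregnant against virgin, −0.29 and −0.20 for pseudopregnant against virgin, and 0.05 and 0.43 for pregnant against pseudopregnant, none past the threshold.

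Of 16 genes that edit, synthesise or lipidate, 15 had a positive value for pregnant against virgin (median 0.14), where 7124 of all 14675 genes did. There were 6 for pseudopregnant against virgin (median −0.07) and 13 for pregnant against pseudopregnant (median 0.18), where 7432 and 7107 of all genes did. With the villus and crypt covariate the medians for pregnant and for pseudopregnant against virgin were −0.03 and −0.13. With the length slope covariate they were 0.16 and 0.01. For pregnant against pseudopregnant the median with the villus and crypt covariate was 0.10. The 16 absorptive markers were all positive for pregnant against virgin, and the part of cell make-up in these counts was not tested. Dgat2, which makes triglyceride, averaged 165 ± 27.3 CPM in pregnant against 138 ± 26.9 CPM in virgin libraries, with 6 of 6 pregnant libraries above the virgin median (log2 fold change 0.25, SE 0.15, edgeR adjusted p = 0.89, and 0.06 with the villus and crypt covariate). Plin2, a coat protein of lipid droplets, averaged 93.4 ± 10.7 CPM in pregnant against 78.7 ± 11.9 CPM in virgin libraries, a log2 fold change of 0.25 (SE 0.16, edgeR adjusted p = 0.89, and 0.13 with that covariate). A1cf, a cofactor of the enzyme that edits Apob mRNA, averaged 52.7 ± 29.5 CPM in pseudopregnant and 25.1 ± 12.7 CPM in virgin libraries, a log2 fold change of 1.07 (SE 0.42, edgeR adjusted p = 0.52). A1cf had 0.18 with the length slope covariate and 1.08 with the villus and crypt covariate. For pregnant against virgin, Dgat2 and Plin2 had 0.26 and 0.28 with the length slope covariate. Lpcat3, a phospholipid remodelling enzyme, had 0.18 for pregnant against virgin and 0.19 for pseudopregnant against virgin. Tmem41b had −0.12 for pseudopregnant against virgin, and for pregnant against pseudopregnant Plin2 had 0.32, Tmem41b 0.18 and Pla2g12b 0.25.

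Of 23 genes of export from the endoplasmic reticulum, 16, 15 and 9 had a positive value for pregnant against virgin, pseudopregnant against virgin and pregnant against pseudopregnant, with medians of 0.07, 0.12 and −0.01. With the length slope covariate these medians were 0.03, −0.01 and 0.02, and with the villus and crypt covariate 0.01, 0.09 and −0.10. Sec16a, a scaffold of exit sites, averaged 70.7 ± 28.3 CPM in pseudopregnant and 46.0 ± 12.9 CPM in virgin libraries, a log2 fold change of 0.62 (SE 0.26, edgeR adjusted p = 0.52). Sec31a, of the outer COPII coat, averaged 227 ± 66.2 CPM in pseudopregnant and 164 ± 30.4 CPM in virgin libraries, a log2 fold change of 0.47 (SE 0.21, edgeR adjusted p = 0.52). Sec16a had 0.06 and Sec31a 0.07 with the length slope covariate, and 0.61 and 0.45 with the villus and crypt covariate. For pregnant against virgin Sec16b had 0.37, Dennd5b 0.27 and Sec31a 0.28, against 0.20, 0.15 and 0.06 with the length slope covariate. The villus and crypt covariate gave them 0.18, 0.08 and 0.16. Dennd5b had 0.36 for pseudopregnant against virgin (0.13 with the length slope and 0.29 with the villus and crypt covariate). Tfg, Sec13 and Bet1 had 0.21, −0.13 and 0.19 for pregnant against pseudopregnant.

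Of 19 transcription regulators, 15, 12 and 11 had a positive value in the same order, with medians of 0.11, 0.08 and 0.04. With the length slope covariate these medians were −0.02, −0.03 and 0.07, and with the villus and crypt covariate 0.07, 0.08 and −0.01. Hnf4a, a nuclear receptor active in enterocytes, had 335 to 774 CPM over the 18 libraries. Ppara, a fatty acid receptor, averaged 19.2 ± 9.24 CPM in pseudopregnant and 11.2 ± 1.50 CPM in virgin libraries, with 6 of 6 pseudopregnant libraries above the virgin median (log2 fold change 0.79, SE 0.25, edgeR adjusted p = 0.52, and 0.33 with the length slope covariate). Cdx2, an intestinal identity factor, averaged 215 ± 42.6 CPM in pseudopregnant and 281 ± 47.6 CPM in virgin libraries, with 0 of 6 above the virgin median (log2 fold change −0.39, SE 0.17, edgeR adjusted p = 0.52, and −0.24 with the length slope covariate). Ppargc1a averaged 41.9 ± 15.4 CPM in pregnant against 29.9 ± 8.35 CPM in virgin libraries, a log2 fold change of 0.49 (SE 0.23, edgeR adjusted p = 0.89), which was 0.31 with the length slope covariate. The villus and crypt covariate gave Ppara 0.77 and Cdx2 −0.44 for pseudopregnant against virgin, and Ppargc1a 0.29 for pregnant against virgin. Foxo1 had 0.17 for pregnant against virgin. For pregnant against pseudopregnant Ppara had −0.63 and Cdx2 0.27.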

How the data were processed

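Each library has a deposited table of raw, unnormalized read counts by Ensembl gene. Subread 2.0.0 with featureCounts, HISAT2 2.0.4, FastQC 0.11.5, DESeq2 1.24.0 and the GRCm38 build appear in the submitters' processing notes. Per the labels' protocols, libraries were poly(A) enriched and directional. The sources used here give neither the strand setting nor the annotation release of the counting.

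Titles gave the group and replicate number. Symbols, positions and exonic lengths came from GENCODE M21. Genes passing edgeR's filterByExpr (14675) were scaled by TMM and fitted with 1 mean per group over 18 libraries in edgeR 4.0.16 (R 4.3.3, quasi-likelihood, legacy = FALSE), two-sided, adjusted over all tested genes, threshold 0.05. On simulated counts for pregnant against virgin, the fit recovered 63.0% of 100 genes changed by log2 1 and 96.0% of 100 changed by log2 2. The changed genes were drawn at random and the counts had no variation shared within a library. These rates are therefore not those of the members, whose SE was 0.21 to 0.47 against a median of 0.20 over all genes. Log2 CPM used a prior count of 2. Ratios were tested by exact permutation over 924 splits, and correlations with 100000 permutations.

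Alternatives were DESeq2 1.42.0 or its size factors, limma-voom (limma 3.58.1), other count filters, only the 12 libraries compared, a replicate block, 2 covariates and each library left out. The length slope covariate was added after seeing the data. The members and lists were chosen with earlier results of these data known. Named genes were all members, the 3 genes of smallest unadjusted p per pathway list and comparison and the 3 genes most like each member. Some genes named by this rule are not reported here. Replicates of a group differed beyond sampling noise in all 45 pairs (35.5 to 456 chi-square units per degree of freedom).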

Additional observations from a re-analysis of the deposited data

How the results depend on the processing

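None of 378 fold changes of members in the alternative fits passed the adjusted threshold (lowest adjusted p 0.19), and 20 of these values changed sign. Pregnant against virgin, Apoa4 was 0.19 by limma-voom and 0.16 with the replicate block, and Apoc3 was 0.15, 0.07 and, with the length slope, 0.08. With the villus-minus-crypt covariate Apoa1 was −0.09 and Sar1b −0.07. With the length slope, pseudopregnant against virgin, Mttp was −0.12 and Apoh 0.03. The causes were not tested. Genes past the threshold for pregnant against virgin numbered 5 by DESeq2 and 1 (Gm42427) with the replicate block.

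Correlations with the villus-minus-crypt score without pregnant 3 and virgin 3 were 0.48, 0.53, 0.53, 0.43 and 0.57 for Apoa1, Apoa4, Apob, Apoc3 and Mttp. Within pregnant libraries they were 0.40, 0.49, 0.80, 0.39 and 0.82, and within pseudopregnant libraries 0.76, 0.90, −0.01, 0.71 and 0.46. Within virgin libraries Apoa1, Apoa4, Apoc3 and Mttp had 0.74, 0.74, 0.57 and 0.75. Correlations with the length slope changed sign for Mttp within pseudopregnant libraries (−0.01) and, within virgin libraries, for Apoa1 (0.18), Apoa4 (0.28), Apoc3 (0.03) and Sar1b (0.32).

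With 1 library left out, values that changed sign ranged, pseudopregnant against virgin, from −0.48 (without pseudopregnant 1) to 0.04 (without virgin 3) for Apoa1 and from −0.10 (without virgin 2) to 0.28 (without virgin 3) for Mttp. Pregnant against virgin they ranged from −0.27 (without virgin 6) to 0.35 (without virgin 3) for Apoa4 and −0.22 (without virgin 5) to 0.17 (without virgin 3) for Apoc3, and pregnant against pseudopregnant from −0.01 to 0.15 for Apoe. The Apoa1 to Apoc3 ratio ranged from −0.04 to 0.20 in both comparisons with virgin. Apob, pseudopregnant against virgin, ranged from 0.65 (without virgin 2) to 1.15 (without virgin 3).

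Nothing in the labels pairs the libraries by replicate number. Same-numbered libraries of different groups correlated at −0.48 to 0.66 in their deviations (median 0.14, against −0.04 for other numbers), with 10 of 18 pairs over 0.1 and 5 libraries closest to their own number. All pairs of numbers 1, 3 and 5 were over 0.1, and the 3 libraries numbered 3 had the highest villus-minus-crypt scores, so the numbers were not taken to pair all libraries and what those share was not tested. The replicate block gave 979, 1988 and 618 genes at an unadjusted p under 0.05, against 540, 1375 and 345 without it. Apoc2 had too few counts to test, and whether depth or shared exons set this was not tested. The SE of the tested members (0.21 to 0.47) against a median of 0.20 over all genes limits what size of change could be called.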
